A study of Mus musculus with 4 samples.

Results

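The genes described are 35 markers of macrophages and of leukocytes in general, as measured in fetal mouse kidney. They were chosen by gene name, with earlier results of these data known, and each was followed by its probe set with the highest mean signal over all pools, among probe sets that the platform annotation gives to 1 gene. All 35 were found, out of 18193 genes with such a probe set. The kidneys came from C57BL/6 embryos at embryonic day 15 and were labelled female. In the iron-deficient group the dams ate a synthetic diet with 2 to 6 ppm iron, and in the control group a diet with 220 ppm iron. Both diets began 3 weeks before gestation, in dams that were 8 weeks old, and went on through pregnancy. There were 2 pools per diet with 16 kidneys in each, and 1 array per pool. Whether separate litters gave the pools is not in the labels, so every p-value rests on the spread among 4 pools that may differ for technical reasons alone.

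Macrophages of the fetal kidney descend from precursors of the yolk sac and fetal liver and settle in the tissue before birth. Their survival depends on the receptor of colony-stimulating factor 1, and their gene programme on the transcription factor PU.1. They take up dying cells and debris through scavenger and Fc receptors, secrete the complement subcomponent C1q, and are known to lie close to forming nephrons and vessels. Pan-leukocyte genes such as Ptprc, which encodes CD45, are shared by leukocytes of all kinds.

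Promoters of the members were searched for a feature that played no part in choosing the list. PU.1 binds purine-rich elements that often contain GAGGAA, and this hexamer was searched on both strands, where the reverse strand reads TTCCTC. RefSeq promoter windows (GRCm38.p6, from 250 bases before to 50 bases after a gene's start) were matched for 28 members. Of these, 18 held the hexamer in at least 1 window (64.3%), against 31.3% of all 27025 genes with a window. The longer GAGGAAGT, each match of which also contains the hexamer, was found in 5 of the 28 (Ctss, Cd53, C1qc, F13a1 and Pf4), or 17.9%, against 3.69% of all genes. A match is a description of the letters and does not show binding, and its lack does not show that PU.1 cannot bind. The windows below are those of Lyz2, the member with the lowest p-value and a window without the hexamer, and of 4 members that hold it, among them the neighbouring C1qb and C1qc. Letters in capitals mark the hexamer, and all windows read 5′ to 3′ on the gene's strand.
Lyz2, chr10:117282223-117282522, minus strand: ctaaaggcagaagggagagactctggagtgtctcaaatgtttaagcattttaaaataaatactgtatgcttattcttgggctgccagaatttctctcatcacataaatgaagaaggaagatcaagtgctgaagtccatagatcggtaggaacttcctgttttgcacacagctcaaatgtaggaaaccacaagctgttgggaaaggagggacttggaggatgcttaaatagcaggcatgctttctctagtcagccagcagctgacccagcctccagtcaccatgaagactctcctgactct
Laptm5, chr4:130913066-130913365, plus strand: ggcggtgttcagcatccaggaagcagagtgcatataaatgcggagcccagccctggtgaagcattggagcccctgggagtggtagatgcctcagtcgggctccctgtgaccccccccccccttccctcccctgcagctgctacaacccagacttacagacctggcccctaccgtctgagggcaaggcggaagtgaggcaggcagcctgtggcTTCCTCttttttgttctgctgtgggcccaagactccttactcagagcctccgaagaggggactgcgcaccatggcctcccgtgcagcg
Ctss, chr3:95526536-95526835, plus strand: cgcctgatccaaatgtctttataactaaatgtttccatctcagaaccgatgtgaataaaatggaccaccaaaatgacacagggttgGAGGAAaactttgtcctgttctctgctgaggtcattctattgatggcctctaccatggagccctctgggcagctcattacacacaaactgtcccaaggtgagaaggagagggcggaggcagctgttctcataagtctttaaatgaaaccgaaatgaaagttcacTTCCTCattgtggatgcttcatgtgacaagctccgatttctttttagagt
C1qb, chr4:136886151-136886450, minus strand: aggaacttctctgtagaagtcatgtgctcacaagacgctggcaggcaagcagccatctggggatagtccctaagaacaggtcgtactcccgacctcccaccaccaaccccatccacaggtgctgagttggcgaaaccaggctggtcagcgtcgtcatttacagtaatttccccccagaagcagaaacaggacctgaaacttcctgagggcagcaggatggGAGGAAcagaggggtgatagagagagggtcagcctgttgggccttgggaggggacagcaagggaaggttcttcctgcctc
C1qc, chr4:136892865-136893164, minus strand: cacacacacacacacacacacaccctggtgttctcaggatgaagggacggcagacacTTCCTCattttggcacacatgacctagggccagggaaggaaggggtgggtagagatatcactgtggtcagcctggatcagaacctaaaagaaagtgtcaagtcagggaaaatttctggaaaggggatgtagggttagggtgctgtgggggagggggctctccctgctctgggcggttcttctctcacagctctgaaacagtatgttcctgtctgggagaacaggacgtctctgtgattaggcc

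Signals of these genes were on the whole slightly lower in the iron-deficient pools, by less than most single genes can resolve with 2 pools per diet. The deposited values are intensities on a linear scale, called signals here, and differences are given as log2 of iron-deficient over control. Of the 35 members 30 were bright enough to be tested, and 27 of these had a difference below 0 (90%), against 62.0% of all 12992 genes tested with 1 probe set each. Their median difference was -0.28, against -0.14 over those genes and -0.10 over all 27022 probe sets tested. Both iron-deficient pools lay below both control pools for 14 of the 30 members (46.7%), where the share of all tested genes was 25.9%. For 0 members did both lie above, against 13% of all tested genes. The other 16 members had pools that overlapped between diets.

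No member passed limma's test at an adjusted p of 0.05, with a smallest adjusted p of 0.852 (limma with Benjamini-Hochberg adjustment), and 0% of all probe sets did. At an unadjusted p under 0.05 lay 1 member, Lyz2, which was lower. That is 3.33% of the tested members, and 2.81% of all probe sets were lower and 1.14% higher at the same threshold. An exact permutation test of 2 pools against 2 cannot give a p below 0.333, so none is given for single genes. The 95% interval of the difference included 0 for 29 members and reached a 2-fold lower signal for 26 of the 30. Lack of a call therefore does not show that these genes were alike in the 2 diets. In RNA from whole kidneys, fewer macrophages and less of a transcript per macrophage cannot be told apart.

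How many members were lower depended on how the arrays were scaled. The distance of their median from the median gene changed with quantile normalization and with the pools used. The deposited arrays share a trimmed mean. Centring each array on its median instead adds the same amount to every difference, so that the median of all probe sets was 0.093 and that of all tested genes 0.059. The members' median was then -0.085, and 20 of 30 members were below 0 (66.7%, against 44.7% of all tested genes). The members stood at -0.14 relative to the median gene on both scales, since a common shift cannot alter that distance. After centring, 4 members, Lyz2, Adgre1, Ptprc and Laptm5, were lower in both iron-deficient pools (13.3%, against 15.6% of all tested genes). On that scale 0 members were higher in both, against 23.9% of all tested genes. After quantile normalization the members' median was -0.16, or -0.073 relative to the median gene, and 8 were lower in both pools (26.7%, against 22.2%). Here 0 members were higher in both, against 14.6% of all tested genes. Leaving out iron-deficient pool 1 gave a distance from the median gene of -0.25, and leaving out iron-deficient pool 2 gave -0.014. It was -0.23 without control pool 1 and -0.058 without control pool 2.

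**Figure D1:**
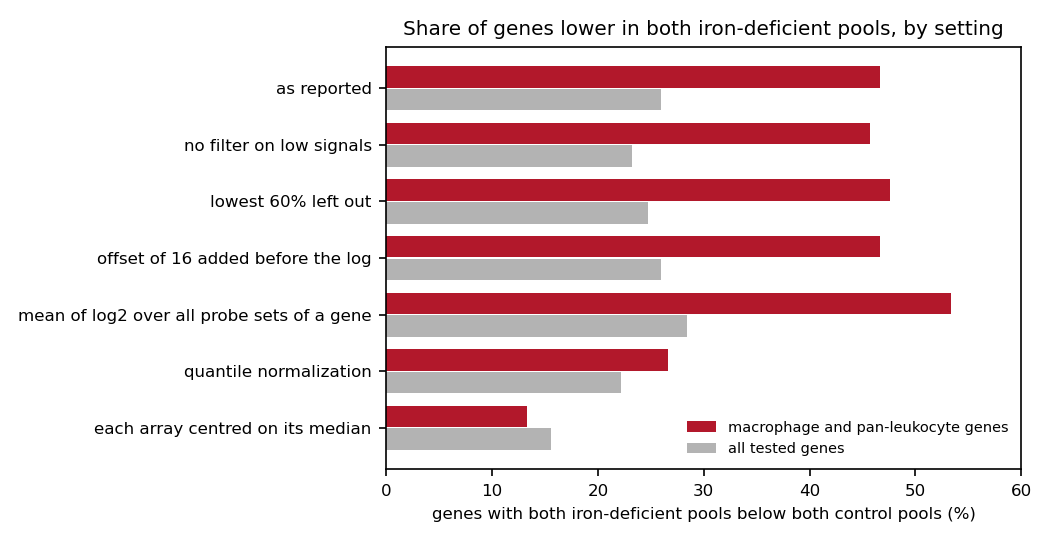
Percentage of genes whose 2 iron-deficient pools both lay below both control pools, for the tested macrophage and pan-leukocyte genes (red) and all tested genes (grey), under 7 processing settings. The red bar is longer in the first 5 settings, as with 46.7% against 25.9% as reported, and the bars come together at 26.7% against 22.2% after quantile normalization and 13.3% against 15.6% after centring.

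The 2 iron-deficient pools differed in how many members were low. In pool 1 alone, 23 of 30 members lay below both control pools and 2 above both, and in pool 2 alone 19 lay below and 4 above. Over all tested genes the shares below both control pools were 60.1% for pool 1 and 38.4% for pool 2, against 76.7% and 63.3% of the members. Relative to the control mean, the members' median stood at -0.32 for the first iron-deficient pool and -0.25 for the second. The median of all tested genes stood at -0.31 for the first and 0.0026 for the second. In the first pool the members' median was thus close to that of all tested genes. The typical absolute difference between the 2 pools of a diet was 0.53 for the iron-deficient pools and 0.25 for the control pools (medians over the 30 members). The median absolute difference by diet was 0.28, between these values. Summed over all 35 members, signals came to 6394.3 and 7506.2 in the iron-deficient pools, against 8132.9 and 8967.8 in the control pools.

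The arrays also differed in measures that are not about macrophages. Log2 signals of iron-deficient pool 1 correlated with the other arrays at 0.883 to 0.913, where the control pools reached 0.978 with each other. Iron-deficient pool 2 correlated at 0.902 with iron-deficient pool 1, and at up to 0.970 with a control pool. It was thus closer to a control array than to the other array of its diet. A ribosomal control (18S, 5′ end) had signals of 2144.5 and 243 in the iron-deficient pools, against 291.9 and 289.4 in the control pools. Eif2s3y, a Y-linked gene, read 253.6 and 20.8 in the iron-deficient pools, against 594.5 and 600 in the control pools. These values were above background in every pool, which goes against the label of female for all kidneys. Xist, the RNA that silences an X chromosome, read 3427 and 1543 in the iron-deficient pools, against 926.6 and 167.8 in the control pools. The part of array quality and of embryo sex in the members' values was not tested. The nephron progenitor and podocyte genes Wt1 and Podxl, which mark the labelled tissue, were above background in all pools. Background here is the highest of 27 unspiked control probe sets on each array (14.4 and 13.3 in the iron-deficient pools, 8.5 and 8.2 in the control pools).

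**Figure D2:**
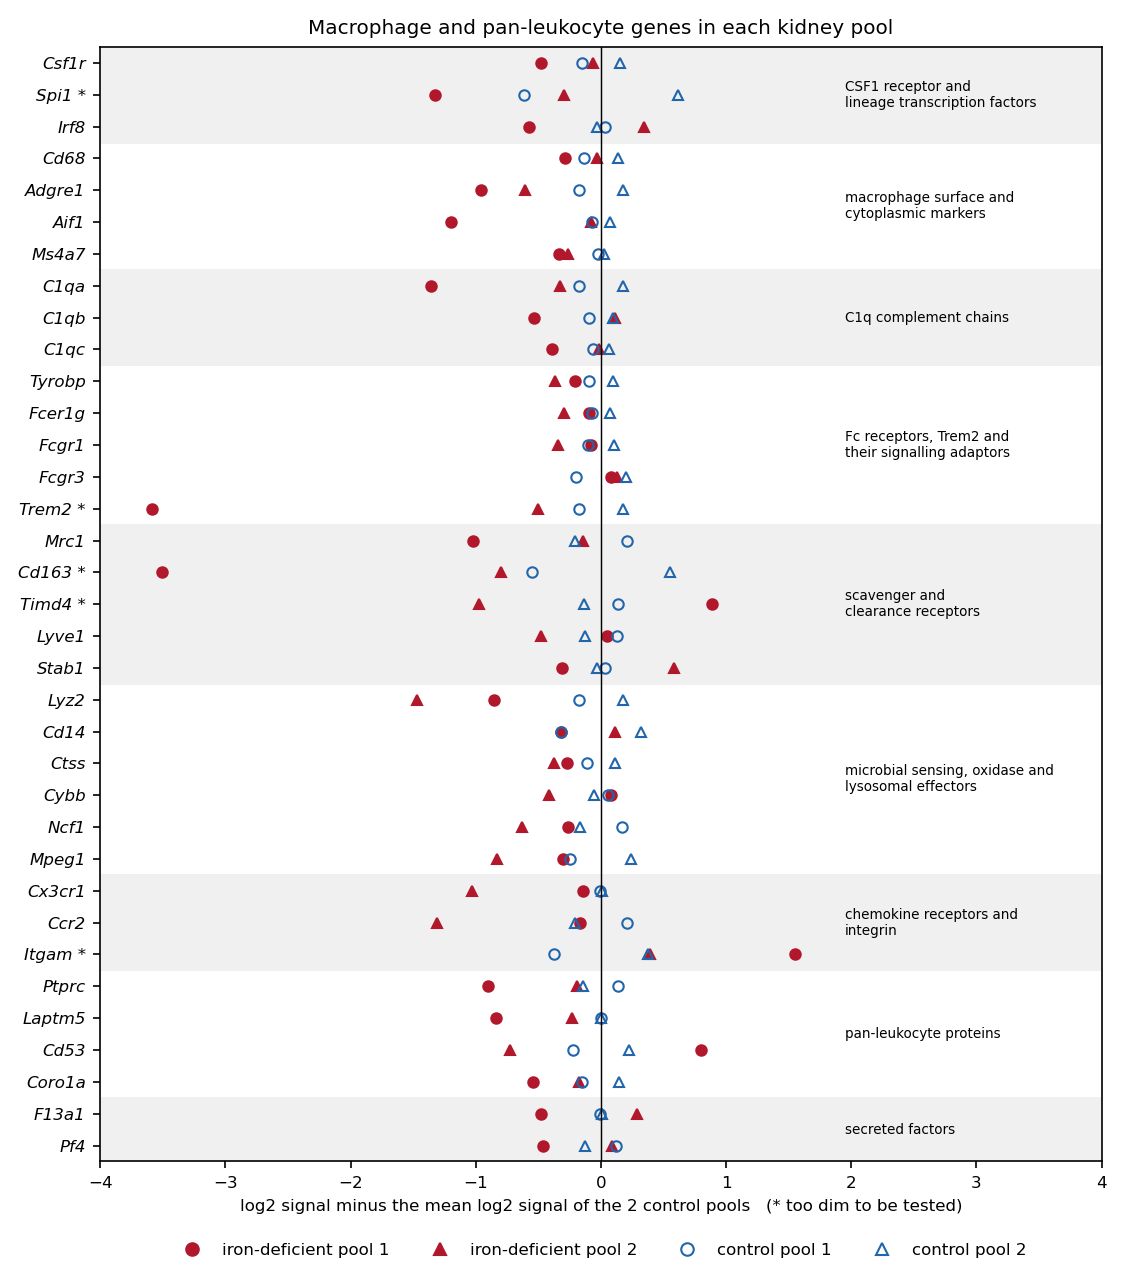
Log2 signal of each of the 35 genes in each pool, minus the mean log2 signal of the 2 control pools, with genes grouped by role. Filled red circles and triangles are iron-deficient pools 1 and 2, and open blue circles and triangles are control pools 1 and 2. An asterisk marks the 5 genes too dim to be tested. Most red symbols lie left of 0, and for many genes only 1 of the 2 red symbols lies clear of the blue ones.

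Among the regulators, Csf1r, the receptor on which macrophages depend for survival, had signals of 274.7 and 366.3 in the iron-deficient pools, against 345.2 and 425.9 in the control pools. Pool 2 of the iron-deficient diet lay between the control pools, and the difference was -0.27 ± 0.34 (SE, limma adjusted p = 0.861). For a pair of dimmer Csf1r probe sets the diets did not overlap and the iron-deficient pools were lower, at -0.60 ± 0.39 and -0.54 ± 0.34, so the probe sets of this gene did not give the same order of pools. Spi1, which encodes PU.1, was too dim to be tested, with 7.2 and 14.7 in the iron-deficient pools and 11.8 and 27.6 in the control pools. Its lowest value, in iron-deficient pool 1, was below background, and the diets overlapped. Irf8, a transcription factor of monocytes and macrophages, had pools that overlapped, with a difference of -0.11 ± 0.41. A dimmer Irf8 probe set stood the other way, at 0.67 ± 0.33, with both iron-deficient pools above both control pools.

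Of the 4 general macrophage markers, 3 were lower in both iron-deficient pools (25.9% of all tested genes were). After centring 1 was, Adgre1 (15.6% of all tested genes were). Adgre1, the adhesion receptor known as F4/80, had signals of 38 and 48.6 in the iron-deficient pools, against 65.4 and 83.5 in the control pools. All 4 values were above background and the diets did not overlap, with a difference of -0.78 ± 0.34 (SE), an unadjusted p of 0.0669 and an adjusted p of 0.852 by limma. Aif1, an actin-binding protein also called IBA1, read 48.4 and 105.1 in the iron-deficient pools and 105.4 and 116.5 in the control pools. Here iron-deficient pool 2 almost touched control pool 1, and the difference of -0.64 ± 0.46 was -0.076 without iron-deficient pool 1. Ms4a7, a membrane protein of macrophages, and Cd68, a glycoprotein of the endosome and lysosome, differed by -0.30 ± 0.31 and -0.16 ± 0.33. Ms4a7 was lower in both iron-deficient pools, and Cd68 overlapped.

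The 3 chains of C1q, which together form the recognition part of the classical complement pathway, did not stand equally far apart. C1qa had 41.0 and 83.5 in the iron-deficient pools, against 93.0 and 118.2 in the control pools, a difference of -0.84 ± 0.45. C1qb had 700.5 and 1095.7 in the iron-deficient pools, against 950.2 and 1080.6 in the control pools (-0.21 ± 0.37). C1qc had 125.4 and 163.0 in the iron-deficient pools, against 158.1 and 171.9 in the control pools (-0.21 ± 0.33). Iron-deficient pool 1 was the lowest of the 4 pools for each chain, and iron-deficient pool 2 lay within the control range for C1qc, above it for C1qb and below it for C1qa. Without iron-deficient pool 1 the C1qb difference was 0.11. Of the other C1qb probe sets, the brighter overlapped between diets at -0.20 ± 0.37, and the dimmer was lower in both pools, at -0.72 ± 0.43. Outside the members, Cfb, factor B of the alternative pathway, read 19.8 and 37.9 in the iron-deficient pools and 65.6 and 72.5 in the control pools (-1.33 ± 0.42, unadjusted p = 0.0218 by limma). Of 8 complement genes tested outside the members, it was the only one lower in both pools, and C1ra, the protease that C1q activates, was the only one higher in both (0.40 ± 0.35).

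Fc receptors and their adaptors showed small differences. Tyrobp, the adaptor DAP12, and Fcer1g, the common Fc receptor gamma chain, were lower in both iron-deficient pools, by differences of -0.29 ± 0.32 and -0.19 ± 0.32, and that of Fcer1g was 0.0020 after centring. Fcgr1 and Fcgr3, receptors for immunoglobulin G, overlapped between diets and differed by -0.21 ± 0.32 and 0.11 ± 0.33. Trem2, a lipid receptor that signals through Tyrobp, was too dim to be tested, with 2.7 and 23.0 in the iron-deficient pools and 28.8 and 36.7 in the control pools. The first of these values was below background, and the diets did not overlap. Outside the members, the related receptor Fcgr4 stood the other way, at 129.8 and 85.5 in the iron-deficient pools and 35.9 and 54.4 in the control pools (1.25 ± 0.40, unadjusted p = 0.0230 by limma).

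Of the 3 scavenger receptors tested, none was lower in both iron-deficient pools. Mrc1, the mannose receptor, read 145.8 and 267.3 in the iron-deficient pools, against 341.6 and 256.4 in the control pools. Only iron-deficient pool 1 lay outside the control range, and the difference was -0.58 ± 0.42. Lyve1, a hyaluronan receptor of tissue macrophages and lymphatic endothelium, read 89.4 and 61.9 in the iron-deficient pools and 94.2 and 79.0 in the control pools (-0.21 ± 0.36), with a dimmer probe set at 0.33 ± 0.36. Stab1, a clearance receptor of macrophages and sinusoidal endothelium, had its lowest and its highest value in the 2 iron-deficient pools and differed by 0.14 ± 0.41. Cd163, the receptor for haemoglobin bound to haptoglobin, stayed below background in the iron-deficient pools (1.8 and 11.8) and read 14 and 30 in the control pools. It was too dim to be tested. With the iron-deficient pools set to their backgrounds (14.4 and 13.3), their mean was at least 1.48-fold lower. Control pool 1 lay between those backgrounds, so this fold came almost wholly from control pool 2. Timd4, a receptor for phosphatidylserine on dying cells, was above background in 1 pool of each diet. Among endothelial genes, 5 lymphatic genes tested had a median of 0.19 with 1 lower and 1 higher in both pools, and 9 blood endothelial genes had a median of -0.31 with 4 lower and 1 higher. Summed signals were 4861 and 3888 in the iron-deficient pools and 3253 and 3507 in the control pools for the lymphatic list, and 3288 and 4342 in the iron-deficient pools and 5132 and 5360 in the control pools for the blood endothelial list. The part of endothelium in the signals of Lyve1, Stab1 and Mrc1 was not tested.

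**Figure D3:**
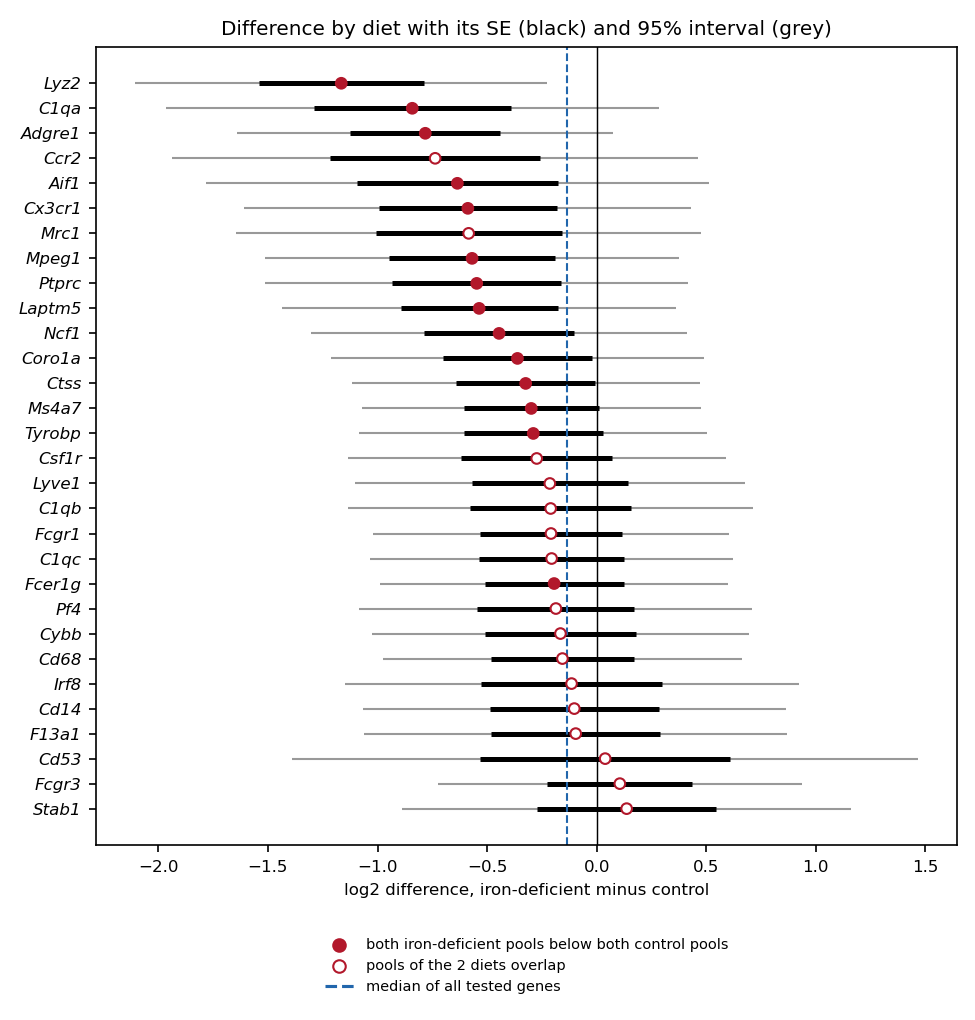
Difference by diet of the 30 tested genes (log2, iron-deficient over control), with the standard error in black and the 95% interval in grey. Filled points are the 14 genes with both iron-deficient pools below both control pools, and the dashed line is the median of all tested genes (-0.14). The intervals of all genes but Lyz2 include 0.

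The effector genes held the member with the lowest p-value. Lyz2, lysozyme of macrophages and granulocytes, had signals of 398.9 and 260.2 in the iron-deficient pools, against 638.7 and 817.6 in the control pools. Every value was above background and the diets did not overlap, with a difference of -1.17 ± 0.38 (SE, 95% interval -2.11 to -0.23). Its unadjusted p was 0.0236 and its adjusted p 0.852 by limma, and it ranged from -1.47 to -0.86 when single pools were left out. Its mean signal in the iron-deficient pools was 45.3% of the control mean, and it was the only tested member past a 2-fold difference. After centring its difference was -0.97, and its unadjusted p was not under 0.05 then, nor without control pool 1 or control pool 2.

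Mpeg1, the pore-forming perforin-2 of phagocytes, read 86.1 and 59.7 in the iron-deficient pools and 89.8 and 125.9 in the control pools (-0.57 ± 0.38). Iron-deficient pool 1 lay just under the lower control pool. Ncf1, the organising subunit of the phagocyte oxidase, read 44.1 and 34.2 in the iron-deficient pools, against 59.5 and 47.0 in the control pools (-0.45 ± 0.34). The catalytic subunit of that oxidase, Cybb, overlapped and differed by -0.17 ± 0.34. A dimmer Cybb probe set was lower in both iron-deficient pools, at -0.27 ± 0.31. Of the oxidase subunits outside the members, Ncf4 was lower in both iron-deficient pools (21.3 and 33.8 in those pools, against 39.7 and 59.6 in the control pools) and Cyba overlapped, with differences of -0.86 ± 0.41 and -0.52 ± 0.40. Ctss, the lysosomal protease cathepsin S, was lower in both iron-deficient pools (-0.32 ± 0.32). Cd14, the co-receptor for bacterial lipopolysaccharide, overlapped (-0.10 ± 0.39).

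Chemokine receptors were low in iron-deficient pool 2 in particular. Cx3cr1, the fractalkine receptor of resident macrophages, read 42.6 and 23.1 in the iron-deficient pools, against 46.8 and 47.5 in the control pools (-0.59 ± 0.41). Ccr2, which draws monocytes out of the blood stream into tissue, read 30.5 and 13.8 in the iron-deficient pools, against 39.5 and 29.6 in the control pools (-0.74 ± 0.48). Its pools overlapped, since iron-deficient pool 1 lay between the control pools. Itgam, the integrin chain CD11b, was not above background in any pool, with 14 and 6.3 in the iron-deficient pools and 3.7 and 6.2 in the control pools. Its partner Itgb2 was also dim, with 14.4 and 13.8 in the iron-deficient pools and 17.0 and 17.2 in the control pools.

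Of the 4 pan-leukocyte genes, 3 were lower in both iron-deficient pools, against 25.9% of all tested genes. After centring 2 were, Ptprc and Laptm5, against 15.6% of all tested genes. Ptprc read 78.3 and 128.8 in the iron-deficient pools, against 161.7 and 133.2 in the control pools (-0.55 ± 0.39). Laptm5, a lysosomal membrane protein of blood cells, read 488.8 and 745.0 in the iron-deficient pools and 875.1 and 875.2 in the control pools (-0.54 ± 0.36). Its control pools were nearly identical, and its other tested probe sets were lower in both iron-deficient pools as well (-0.59 ± 0.34 and -0.76 ± 0.33). Coro1a, an actin regulator of leukocytes, read 449.0 and 579.1 in the iron-deficient pools, against 591.2 and 725.9 in the control pools (-0.36 ± 0.34). Cd53, a tetraspanin of leukocytes, had its extremes in the 2 iron-deficient pools, 548.5 and 190.3, against 269.8 and 366.6 in the control pools, and its difference of 0.039 ± 0.57 had the largest standard error among the tested members. Of 21 other leukocyte signalling and actin genes tested, 8 were lower and 1 higher in both iron-deficient pools, with a median of -0.22, where 25.9% and 13% of all tested genes were. After centring 2 were lower and 2 higher, and the median was -0.028, where 15.6% of all tested genes were lower and 23.9% higher.

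The secreted factors overlapped between diets. Pf4, platelet factor 4, which fetal macrophages also express, read 343.6 and 504.5 in the iron-deficient pools and 516.1 and 434.7 in the control pools (-0.19 ± 0.36). F13a1, the catalytic chain of coagulation factor XIII, differed by -0.10 ± 0.39. Of 6 megakaryocyte and platelet genes tested, 0 were lower and 2 higher in both iron-deficient pools (13% of all tested genes were higher), and their median was -0.12. Their summed signals were 304 and 221.2 in the iron-deficient pools, against 233.3 and 227.1 in the control pools. The part of platelets in the Pf4 signal was not tested.

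Genes of the same biology outside the members were counted in the same way. Of 27 other macrophage genes tested, 13 were lower and 4 higher in both iron-deficient pools, with a median of -0.32, where 25.9% of all tested genes were lower and 13% higher. After centring 8 were lower and 6 higher, with a median of -0.12, where 15.6% of all tested genes were lower and 23.9% higher. On the deposited scale 0 passed at an adjusted p of 0.05 by limma. At an unadjusted p under 0.05 lay 3 of them: Clec4a3, a lectin receptor (14.1 and 20.2 in the iron-deficient pools, the first of them below background, and 44.5 and 51.7 in the control pools), and Lgmn, the lysosomal protease legumain (121.2 and 176.5 in the iron-deficient pools, against 265.4 and 277.6 in the control pools), which were lower, and Fcgr4, which was higher. The part of tubule and other kidney cells in the signals of these 3 genes was not tested. Of the CSF1 receptor's ligands, Csf1 had 71.5 and 71.9 in the iron-deficient pools, against 80.5 and 83.3 in the control pools (-0.19 ± 0.31). Il34, the other ligand, was too dim to be tested, at 25 and 15 in the iron-deficient pools and 12 and 10.9 in the control pools. Csf2rb, the shared chain of the receptors for several haematopoietic cytokines, read 35.6 and 36.3 in the iron-deficient pools and 64.1 and 61.1 in the control pools (-0.80 ± 0.31, unadjusted p = 0.0448 by limma). The 5 tested genes of MHC class II presentation had a median of 0.056, with Cd74 lower in both iron-deficient pools and H2-Eb1 higher. Among genes of iron-recycling and Kupffer-type macrophages, the 4 tested had a median of 0.084, and Slc40a1, the iron exporter ferroportin, read 857.2 and 898.9 in the iron-deficient pools, against 830.1 and 941.1 in the control pools.

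Granulocyte and erythroid markers had mostly higher signals in the iron-deficient pools. Of 9 granulocyte genes tested, both iron-deficient pools lay above the control pools for 7 and below them for 1, with a median of 2.11, and 0 passed at an adjusted p of 0.05 by limma while 7 had an unadjusted p under 0.05. Mpo, the myeloperoxidase of granulocyte precursors, read 388.4 and 119.7 in the iron-deficient pools, against 13.1 and 11.6 in the control pools. Summed over the 12 granulocyte genes on the array, signals were 2667 and 1987 in the iron-deficient pools, against 619.7 and 620.7 in the control pools. Of the 8 erythroid genes tested, 6 had both iron-deficient pools above the control pools and 1 had them below (median 1.72). Among all tested genes, 13% stood above in this way and 25.9% below. Summed signals of the erythroid list were 9666 and 6728 in the iron-deficient pools, against 2964 and 3302 in the control pools. The parts of granulocytes and of blood content in the members' values were not tested.

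The monocyte list had a median of 0.19 over 5 tested genes, with 2 lower and 3 higher in both pools. Of T cell genes, Cd3d, Cd3e and Cd3g were not above background in any pool, and 0 of the 6 T and NK cell genes on the array were bright enough to be tested. Of 3 B cell genes tested, 1 was lower in both pools (median -0.44). The mast cell and basophil list of 5 tested genes had a median of -0.23, with 2 lower and 1 higher in both pools. For scale, all 7 tested proximal tubule genes were lower in both iron-deficient pools, with a median of -3.12. Nephron progenitor and podocyte genes had a median of -0.077 over 6 tested genes.

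**Figure D4:**
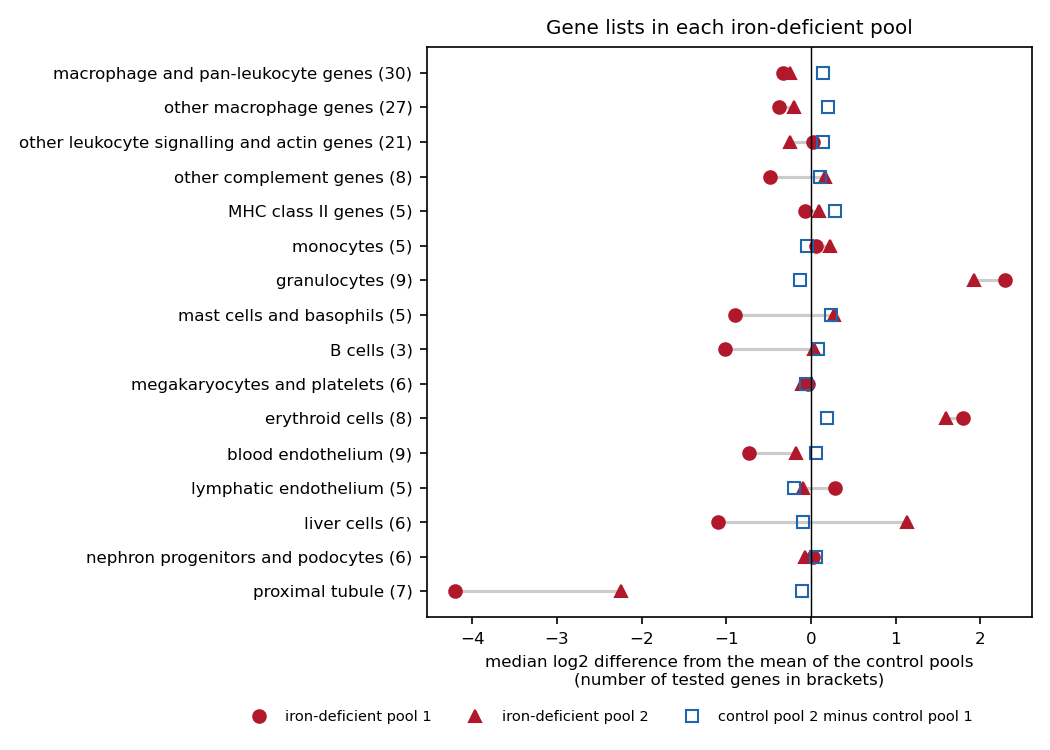
Median log2 difference of gene lists in iron-deficient pool 1 (red circles) and iron-deficient pool 2 (red triangles) from the mean of the control pools, with control pool 2 minus control pool 1 as blue squares. The macrophage and pan-leukocyte list stands at -0.32 and -0.25, the granulocyte list at 2.29 and 1.92, and the proximal tubule list at -4.21 and -2.25. Medians of all tested genes, which are not drawn, were -0.31 in pool 1 and 0.0026 in pool 2.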

How the data were processed

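RNA from 4 pools of embryonic kidneys was biotin-labelled and hybridised to Affymetrix Mouse Genome arrays (per the labels' protocols). Each array's file column, as deposited, holds 1 intensity per probe set on a linear scale, with a mean of 250.0 after trimming 2% at each end. The submitters' processing notes name RMA, but the deposited intensities are not on a log scale and do not share a distribution, so the sources used here do not settle which software made them.

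Zeros were set to 0.1 before log2. The 64 control probe sets and the lowest 40% of the other 45037 by mean log2 were left out (limit 17.3). The test was limma's (version 3.58.1, under R 4.3.3; lmFit and eBayes, two-sided, diet as the only term, 2 residual and 3.49 prior degrees of freedom), with Benjamini-Hochberg adjustment over 27022 probe sets. The ± sign gives the standard error of the log2 difference. The procedure was tested on simulated data. Only probe sets with 1 gene symbol (34945) were named, and updating symbols through GRCm38.p6 changed 0. For 2 members, Irf8 and Lyve1, tested probe sets differed in sign.

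The members and all gene lists were chosen with earlier results of these data known. All 4 values are given for the 12 members with the smallest p (1 was under 0.05) and for 13 named whatever their values (Csf1r, Spi1, Ptprc, Adgre1, C1qa, C1qb, C1qc, Cx3cr1, Ccr2, Lyve1, Mrc1, Itgam and Pf4). Of each other list up to 3 genes by smallest p could be named, with Csf1, Il34, Itgb2, Mpo, Eif2s3y and Xist. Further pool values (Cd163, Trem2, Cd53, Slc40a1), the difference given for Cyba, and the promoters printed, were chosen after values were seen. Genes of the lists without a probe set of 1 symbol (35) were not analysed here. "At least" folds set the dim pools to the array's background. Alternatives tried were quantile normalization, centring on array medians, no filter or a filter of 60%, an offset of 16, 1 probe set per gene, the mean over a gene's probe sets, an intensity trend, robust moderation, array weights, a block for pool number, omission of single pools, and an adjusted p of 0.10. The number of arrays limits the precision.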

Additional observations from a re-analysis of the deposited data

How the results depend on the processing

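No member passed at an adjusted p of 0.05 under any alternative run, nor at 0.10 in the fit as reported. Without iron-deficient pool 2, which leaves 1 pool in that diet, the smallest member adjusted p by limma was 0.0771. The members' median of -0.28 was -0.16 after quantile normalization and -0.085 after centring, and -0.35 to -0.22 with single pools left out. The count of members lower in both iron-deficient pools, 14, was 8 after quantile normalization, 4 after centring and 18 to 23 with single pools left out, where fewer pools have to be ordered. The count higher in both, 0, was 1 without the filter (Itgam, not above background) and 0 to 4 with single pools left out. The 4 were seen without iron-deficient pool 1, where 37.8% of all tested genes were higher. With single pools left out, 34.2% to 60.1% of all tested genes were lower and 19.0% to 37.8% higher. At an unadjusted p of 0.05 by limma, 1 of 30 members passed as reported, against 3.96% of all probe sets. After centring 0 passed, against 3.92%. With the mean over probe sets it was 2 of 30, against 6.19% of all genes.

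Signs that turned after centring were those of Cd68 (0.040), Fcer1g (0.0020), Cd14 (0.094), Cybb (0.031), F13a1 (0.10), Irf8 (0.082) and Pf4 (0.010). After quantile normalization they were those of Cd68 (0.021) and F13a1 (0.085), and with the mean over probe sets those of Irf8 (0.28) and Lyve1 (0.057). With single pools left out, differences ranged from -0.53 to 0.11 for C1qb, -0.42 to 0.22 for Cd14, -0.72 to 0.80 for Cd53, -0.41 to 0.083 for Cybb, -0.48 to 0.29 for F13a1, -0.095 to 0.31 for Fcgr3, -0.57 to 0.34 for Irf8, -0.48 to 0.051 for Lyve1, -0.46 to 0.091 for Pf4 and -0.31 to 0.58 for Stab1. The cause was not tested.

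With the pool number as a replicate block, 0 members and 479 of all probe sets passed, against 0 probe sets without it, and the members' median stayed at -0.28. The labels link pools of the 2 diets by a number only, and do not say whether same-numbered pools were handled together. Same-numbered pools deviated together with a correlation of 0.36 across probe sets. Of all probe sets or genes, 75 passed without control pool 1, 31 without control pool 2, 8 with 1 probe set per gene and 10 with the mean over probe sets. Signals near background limit Spi1, Trem2, Cd163, Timd4 and Itgam.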
